A study of Homo sapiens with 3 samples.

Results

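The genes examined were 10 genes of tubulins and of the tubulin polymerization promoting proteins, TPPP, TPPP3, TUBA1A, TUBA1B, TUBA1C, TUBA4A, TUBB, TUBB3, TUBB6 and TUBG1. They were picked by name out of 21606 genes with a named probe, and 16 of the 29985 named probes belonged to them. The choice was made with results from the same arrays already known, including the rises of TPPP and TPPP3, so the values of these genes are given as a description with no test. The arrays measured RNA of HT29 cells, a cell line derived from a human colon adenocarcinoma, from tissue culture polystyrene (TCP), from a chitosan membrane (CS) and from a chitosan membrane grafted with hyaluronan (CSHA). No drug, knockdown or other agent is named for any of these cultures, and the sources used here do not state how long the cells for the arrays stayed on each surface. RNA of each culture was labelled with Cy3 and hybridized to 1 array, so differences between surfaces come with no replicate and with no p-value.

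Microtubules are hollow polymers built from dimers of alpha-tubulin and beta-tubulin. They form the mitotic spindle, the tracks of kinesin and dynein motors and the core of cilia. Gamma-tubulin sits in a ring complex from which new microtubules grow. TPPP and TPPP3 are small proteins that bind tubulin and promote its polymerization and bundling, and TPPP is best known from oligodendrocytes. In dividing epithelial cells most alpha-tubulin and beta-tubulin comes from widely expressed genes such as TUBA1B, TUBA1C and TUBB, while TUBB3 is a beta-tubulin best known from neurons.

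The share of probes well above background was between 48.6% and 51.1% on the arrays, no spot was saturated, and the 75th percentile of the processed signal lay between 337 and 423. Of 12 markers of colon epithelium (such as EPCAM, KRT20 and CDX2), between 11 and 12 were well above background on each array. A level below is the log2 signal of a probe relative to the 75th percentile of its array, and a difference is the level on one array minus the level on another. Each difference carries the spread among spots (1 SD), read from 902 probes that were printed 10 times on each array. Each probe of the 10 genes had 1 spot, so its spread is that of replicated probes of like brightness. That spread covers the spots of these arrays and not the variation between cultures. A gene was called higher or lower where the difference was at least 2-fold, which is a rule of size. The RNA came from whole cultures, so a smaller share of cells with a transcript and less of it per cell cannot be told apart.

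RefSeq promoters (assembly GRCh38.p14) were matched for 9 of the 10 genes, and the entry of TPPP3 was not among them. The 250 bases before the start are shown for TPPP, which was higher on both membranes, and for TUBA1A and TUBA1B, which are next to each other on chromosome 12 and took different values on CSHA. Capitals mark the CCAAT box (CCAAT, or ATTGG on the other strand) and the GC box (GGGCGG, or CCGCCC on the other strand), and the search also covered the TATA box (TATAAA, or TTTATA on the other strand). All are written from 5′ to 3′ on the strand of the gene.
TPPP (chr5:693353-693602, minus strand): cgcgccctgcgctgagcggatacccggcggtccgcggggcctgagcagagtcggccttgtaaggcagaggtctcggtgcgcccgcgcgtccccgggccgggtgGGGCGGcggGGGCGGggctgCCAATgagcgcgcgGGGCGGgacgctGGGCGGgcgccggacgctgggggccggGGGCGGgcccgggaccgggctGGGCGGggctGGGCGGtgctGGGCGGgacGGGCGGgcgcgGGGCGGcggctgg
TUBA1A (chr12:49189081-49189330, minus strand): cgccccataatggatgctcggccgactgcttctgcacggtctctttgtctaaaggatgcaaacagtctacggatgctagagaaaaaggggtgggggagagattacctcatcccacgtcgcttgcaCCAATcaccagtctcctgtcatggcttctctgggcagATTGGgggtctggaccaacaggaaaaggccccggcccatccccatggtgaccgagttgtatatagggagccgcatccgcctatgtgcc
TUBA1B (chr12:49131396-49131645, minus strand): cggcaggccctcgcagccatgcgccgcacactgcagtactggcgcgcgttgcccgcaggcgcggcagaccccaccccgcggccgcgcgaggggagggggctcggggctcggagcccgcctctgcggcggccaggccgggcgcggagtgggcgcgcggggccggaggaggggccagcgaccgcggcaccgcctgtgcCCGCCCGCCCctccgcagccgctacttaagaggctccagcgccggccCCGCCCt
The TPPP window held 1 CCAAT box and 10 GC boxes. The TUBA1A window held 2 CCAAT boxes, at 125 and 88 bases before the start, and 0 GC boxes. The TUBA1B window held 0 CCAAT boxes and 3 GC boxes, of which some overlap each other. None of the 3 windows held a TATA box in these letters. Among 35116 promoter windows of this length, 32.0% held a CCAAT box, 42.6% a GC box and 10.7% a TATA box on either strand. These matches describe letters in a window and say nothing about binding of a factor.

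TPPP3 and TPPP were the 2 genes of the set that were higher on both membranes. The level of TPPP3 was -0.35 on TCP, against 1.63 on CS and 1.501 on CSHA. TPPP3 was thus low on TCP and high on both membranes, with a difference from TCP of 1.98 ± 0.09 (3.95-fold) for CS and 1.85 ± 0.09 (3.60-fold) for CSHA. The level of TPPP was -1.88 on TCP, against -0.24 on CS and 0.15 on CSHA. Its rise came to 1.64 ± 0.16 (3.12-fold) for CS and 2.03 ± 0.17 (4.10-fold) for CSHA. Both genes were well above background on all 3 arrays and each was measured by 1 probe. Between the membranes TPPP was higher on CSHA than on CS by 0.39 ± 0.10. TPPP3 was lower on CSHA than on CS by 0.13 ± 0.07, and this difference turned to 0.25 when the arrays were scaled to spike-in probes, which read control RNA added to each sample.

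**Figure D1:**
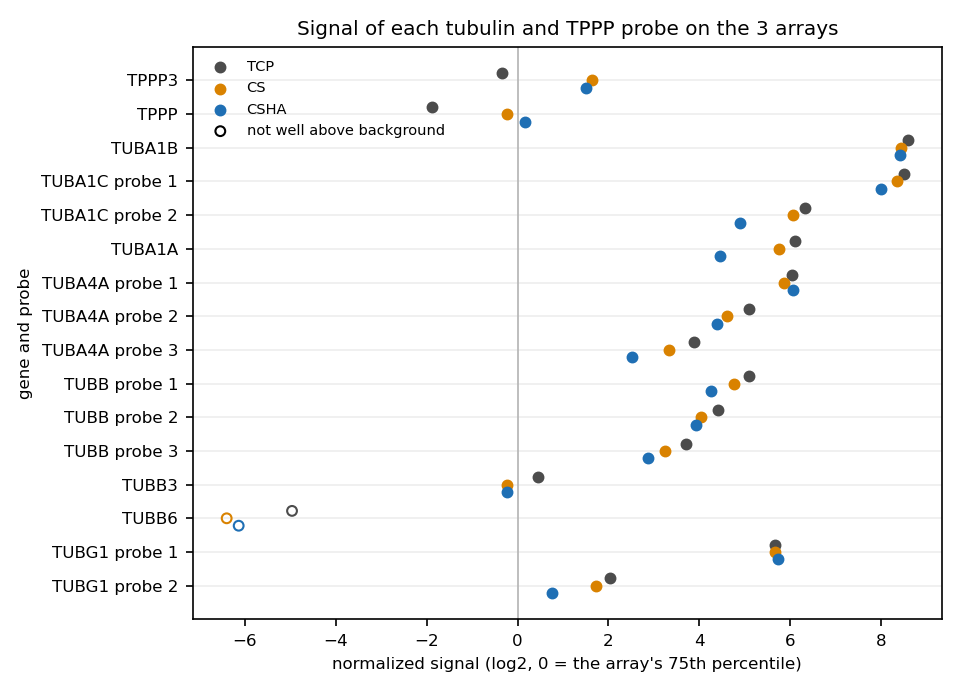
Normalized signal (log2, relative to the 75th percentile of the array) of each of the 16 probes on the TCP, CS and CSHA arrays, with open points for a probe not well above background on that array. TPPP3 and TPPP lay lowest on TCP, most tubulin probes lay lowest on CSHA on this scale (under spike-in scaling 7 of 13 lie above their level on CS), and TUBB6 was not well above background on any array.

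Among genes measured in both arrays of a pair, 8 of 13637 were further up than TPPP3 and 15 were further up than TPPP on CS. On CSHA, 23 of 13525 were further up than TPPP and 35 further up than TPPP3. At least 2-fold higher levels were seen for 2 of the 10 genes on CS, against 1.36% of the 14460 genes compared, and for 2 of the 10 on CSHA, against 3.02% of 14622. These were TPPP and TPPP3 both times, and since the set was put together with their rises known, nothing is read from these counts. The differences on CS and on CSHA share the TCP array and are not independent of each other.

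The 2 genes also lay near each other when CS and CSHA differences were taken as a pair, at a distance of 0.39 (Euclidean, log2). Among 13484 genes well above background on all arrays, the genes nearest to TPPP3 were AKR1C1, an aldo-keto reductase (distance 0.19), LGALS2, which encodes galectin 2 (0.25), and NR0B2, a nuclear receptor that lacks a DNA-binding domain (0.32). The genes nearest to TPPP were NR0B2 (0.10), CEACAM5, the carcinoembryonic antigen of colon epithelium (0.15), and MAOA, monoamine oxidase A (0.16). The differences of NR0B2 were 1.73 (CS) and 2.06 (CSHA), and those of CEACAM5 were 1.57 and 2.16. This likeness rests on 2 differences that share 1 array.

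The alpha-tubulin genes lay close to TCP or below it on the membranes. TUBA1A, an alpha-tubulin best known from developing neurons, had the largest difference among the tubulins of the set. Its level was 6.11 on TCP, against 5.75 on CS and 4.46 on CSHA. The CSHA array stood apart, at 1.64 ± 0.06 below TCP, or 3.12-fold lower, while CS lay 0.36 ± 0.05 below TCP. Against CS, TUBA1A was 2.44-fold lower on CSHA, and under spike-in scaling the difference was -0.90, short of 2-fold. Only 45 of 13525 measured genes were further down than TUBA1A on CSHA against TCP. It was the 1 gene of the 10 called lower on CSHA by its brightest probe, where 3.99% of 14622 genes were called lower against TCP. It was also the 1 called lower on CSHA against CS, where 2.15% of 14595 genes were called lower and 0 of the 10 were among the 2.27% called higher. On CS against TCP, 0 of the 10 genes were called lower, and 1.94% of all genes were.

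TUBA1B and TUBA1C are the neighbours of TUBA1A on chromosome 12, and they encode the alpha-tubulins that many dividing cells use most. The level of TUBA1B was 8.59 on TCP, against 8.45 on CS and 8.41 on CSHA. These levels were close to each other, with CS lower than TCP by 0.14 ± 0.05. On CSHA TUBA1B was 0.18 ± 0.06 lower than on TCP, a direction that turned to 0.26 higher under spike-in scaling. The gene thus differed little across surfaces on which TUBA1A differed 3.12-fold.
TUBA1C had 2 probes that disagreed on CSHA. The brighter probe gave levels of 8.51, 8.35 and 7.99 on TCP, CS and CSHA, and the other gave 6.33, 6.06 and 4.89. Both were lowest on CSHA, although under spike-in scaling the brighter probe lay 0.02 above its level on CS. They lay 0.52 ± 0.06 below TCP for the brighter probe and 1.43 ± 0.06 (2.70-fold) for the other. On CS they lay 0.16 and 0.27 below TCP. The 3 genes are close copies of each other, and the probe sequences were not used here, so which of their transcripts each probe binds is uncertain.

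TUBA4A, an alpha-tubulin gene of chromosome 2, was read by 3 probes. The brightest gave levels of 6.04, 5.86 and 6.07 on TCP, CS and CSHA, so that CSHA differed from TCP by 0.03 ± 0.06, within the spread among spots, with a value that depended on the scaling (-0.00088 under quantile normalization and 0.47 under spike-in scaling). The next probe gave 5.09, 4.61 and 4.38, and the dimmest gave 3.88, 3.32 and 2.51. For both of these TCP was highest and CSHA lowest, except that under spike-in scaling the middle probe was 0.16 higher on CSHA than on CS, with differences from TCP on CSHA of -0.70 ± 0.06 and -1.37 ± 0.06. All 3 probes were lower on CS than on TCP, by 0.17 to 0.56.

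TUBB and TUBB3, the measured beta-tubulin genes of the set, were lower on both membranes than on TCP. TUBB, a broadly expressed beta-tubulin, was read by 3 probes whose levels on TCP, CS and CSHA were 5.09, 4.75 and 4.26 for the brightest, 4.41, 4.04 and 3.92 for the next and 3.71, 3.25 and 2.86 for the dimmest. Each probe was highest on TCP and lowest on CSHA, an order that held under spike-in scaling except for the middle probe, which was then 0.26 higher on CSHA than on CS. The brightest was 0.33 ± 0.05 lower on CS and 0.83 ± 0.06 lower on CSHA. The other probes differed by -0.37 and -0.46 on CS and differed by -0.49 and -0.85 on CSHA, so none reached 2-fold.
TUBB3 had levels of 0.44 on TCP and of -0.23 on both CS and CSHA. Both membranes lay below TCP, by 0.67 ± 0.09 on CS and 0.67 ± 0.10 on CSHA, and CSHA differed from CS by less than the spread among spots. Under spike-in scaling TUBB3 was 0.23 below TCP on CSHA and lay 0.38 higher on CSHA than on CS. Of 13637 measured genes, 325 were further down than TUBB3 on CS, the largest difference on CS among the tubulins of the set.
TUBB6 had a processed signal of 11.3 on TCP and of 4.996 and 4.79 on CS and CSHA. It was not well above background on any array, so no difference is given.

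TUBG1, which encodes the gamma-tubulin of the nucleating ring, had 2 probes that disagreed. The brighter probe gave levels of 5.67, 5.67 and 5.72 on TCP, CS and CSHA. Its difference from TCP was 0.01 ± 0.05 on CS and 0.06 ± 0.06 on CSHA, within the spread among spots, but under spike-in scaling the probe was 0.49 higher on CSHA. The dimmer probe gave 2.03, 1.73 and 0.75, which placed CSHA 1.28 ± 0.07 (2.43-fold) below TCP and CS 0.30 ± 0.06 below. The neighbouring gene TUBG2 encodes a close copy, so the transcripts read by each probe are uncertain here too.

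**Figure D2:**
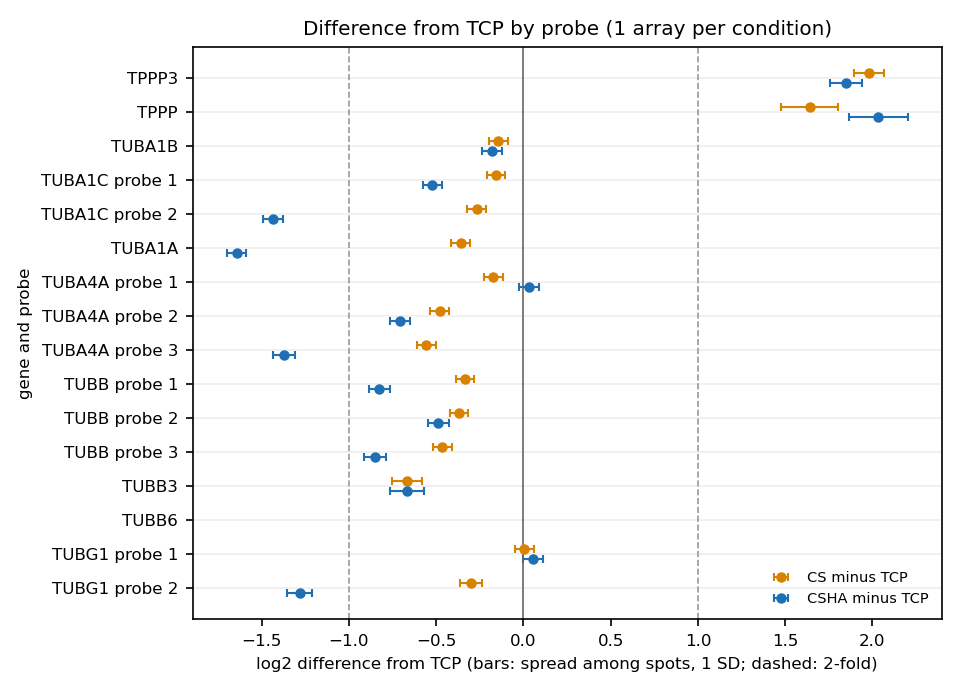
Log2 difference of CS and of CSHA from TCP for each probe, with the spread among spots (1 SD) as bars, dashed lines at 2-fold and probes of a gene numbered from the brightest. On CSHA the probes of TUBA1C, TUBA4A and TUBG1 fall far apart from each other, while both TPPP genes lie beyond 2-fold on both membranes, and TUBB6 has no value.

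Over the 13 measured probes of the alpha-, beta- and gamma-tubulins, 12 were lower on CS than on TCP by more than the spread among spots and 0 were higher by more than it. On CSHA 11 were lower by more than that spread and 0 were higher by more than it, and 4 were at least 2-fold lower (TUBA1A, and the dimmer or dimmest probes of TUBA1C, TUBA4A and TUBG1). Against CS, 11 were lower on CSHA, 9 of them by more than the spread, and under spike-in scaling 6 of the 13 were lower. Probes of 1 gene or of close copies are not independent of each other. By the brightest probe, 5957 of 13637 measured genes were lower on CS and 5200 of 13525 on CSHA. At least 2-fold lower on CSHA were 3.99% of 14622 genes compared. The share of all probes beyond the spread was not worked out, so nothing is read from the counts beyond it. The median difference of the 9 genes with a value was -0.16 on CS and -0.18 on CSHA, beside 0.04 and 0.12 over all measured genes. On CSHA, scaling to 7 spike-in probes raised the median of all measured genes from 0.12 to 0.55. With it the median of these genes went from -0.18 to 0.26. That scaling adds the same amount (0.44) to every gene of the comparison, so it could not change the gap between the medians. Under that scaling 12 of the 13 tubulin probes were lower than TCP on CS and 10 of 13 on CSHA. At least 2-fold lower on CSHA was 1 (TUBA1A), beside 176 of 14502 genes compared. The share of all genes lower by any amount under spike-in scaling was not worked out, so nothing is read from those counts.

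**Figure D3:**
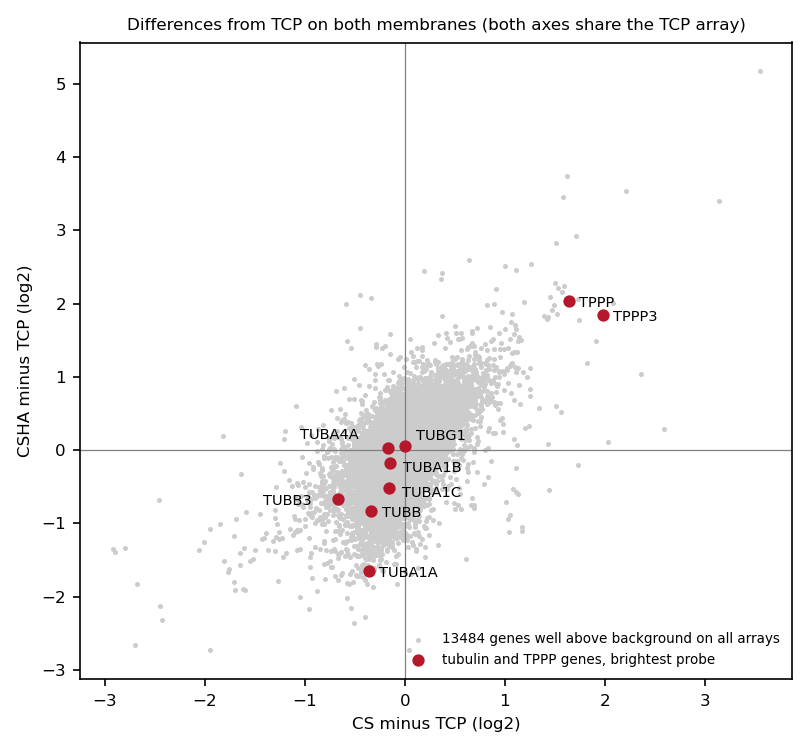
Log2 difference from TCP on CS (x axis) against that on CSHA (y axis) for 13484 genes well above background on all 3 arrays (grey), with the genes of the set in red by their brightest probe. TPPP and TPPP3 lie at the upper right, TUBA1A at the lower edge of the cloud with a difference of -1.64 on CSHA, and the other tubulins near or below 0. Both axes share the TCP array.

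Disagreement among probes of a gene was wider on CSHA than on CS over the whole array. For 3500 genes with several detected probes, the median range of the difference from TCP over the probes of a gene was 0.20 on CS and 0.38 on CSHA. The range was at least 1, or 2-fold, for 1.89% of these genes on CS and 13.3% on CSHA. On CSHA the ranges of TUBA1C, TUBA4A and TUBG1 were 0.91, 1.403 and 1.34, of which the last 2 lay above the 90th percentile of 1.11, while TUBB lay at 0.36. In these 3 genes the dimmest probe was the lowest, and the dimmest probe was lower than the brightest in 61.2% of the 3500 genes, with a median gap of -0.12. Across genes, the median difference of CSHA from TCP lay between 0.06 and 0.15 in each of 10 classes of brightness. The part of brightness in the ranges within a gene was not tested.

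**Figure D4:**
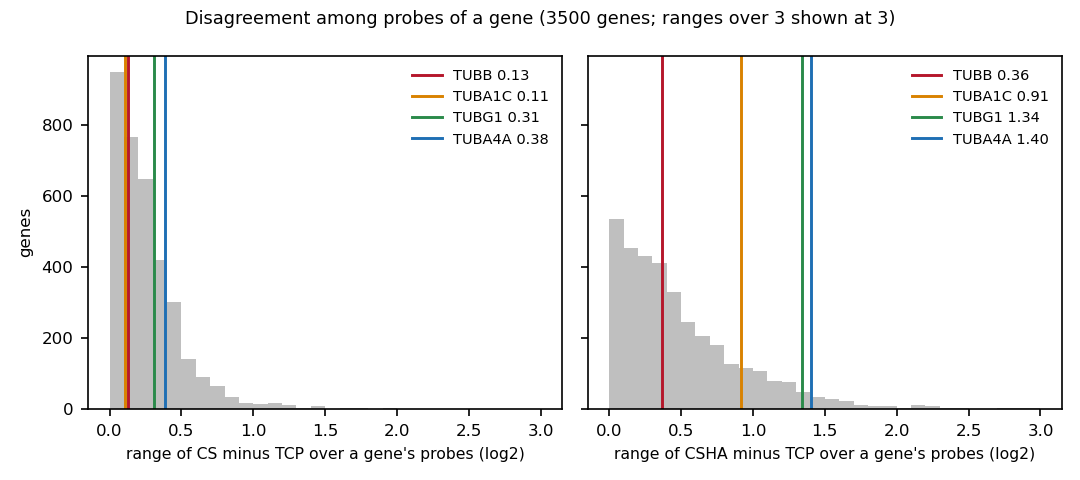
Number of genes (y axis) by the range of the log2 difference from TCP over the detected probes of a gene (x axis, ranges over 3 shown at 3), for CS on the left and CSHA on the right, over 3500 genes. Lines mark the 4 genes of the set with several probes. On CSHA TUBA4A (1.403) and TUBG1 (1.34) lie in the right tail, and on CS all 4 lie at 0.38 or below.

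The other genes of the tubulin and TPPP families were 16, of which 14 had a probe. By the brightest probe, 0 of 10 genes with a value on CS against TCP reached 2-fold in either direction. On CSHA 4 of 11 were at least 2-fold lower, beside 3.99% of all genes, and 0 at least 2-fold higher, beside 3.02%. Under spike-in scaling 2 were lower and 3 higher, beside 176 lower and 1809 higher of 14502 genes compared. The higher ones included TPPP2 and TUBAL3, whose values are lower bounds that exist only through the array where they are high. Nothing is read from these counts. TUBB4B, a broadly expressed beta-tubulin, had levels of 5.63, 5.08 and 3.93 on TCP, CS and CSHA, a difference of -1.69 between CSHA and TCP. TUBG2 had levels of 1.63, 1.23 and 0.03, a difference of -1.61 between CSHA and TCP. As in TUBA1A, the drop was far larger on CSHA than on CS in both genes. TUBA3C was 1.13 lower on CSHA, and so was TUBB8 by its brightest probe, at 1.09. The probes of TUBB8 were discordant, since the next probe gave -1.84 on CS and -1.57 on CSHA, and the dimmest was 1.13 higher on CSHA.
Not all genes of the families went down. TUBA3D, a near copy of TUBA3C, was 0.82 higher on CSHA, and TUBB2A was 0.29 higher on CS and 0.38 higher on CSHA by its brightest probe while its other probe gave -0.14 and -0.89. TPPP2, the relative of TPPP and TPPP3 known from testis, was well above background on CSHA only, at least 0.77 above TCP and 1.22 above CS on the log2 scale. TUBAL3, an alpha-tubulin-like gene, had 2 probes that went opposite ways. The brightest was well above background on both membranes but not on TCP, at least 0.64 higher on CS and 0.96 on CSHA, while the other was well above background on TCP and CS but not on CSHA, with a difference of -0.27 on CS. TUBD1 and TUBE1, which encode the delta- and epsilon-tubulins of centrioles, differed from TCP by 0.04 to 0.35. The median of the family list was -0.24 on CS and -0.11 on CSHA, the latter 0.33 under spike-in scaling.

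Genes whose proteins fold tubulin or act on microtubules mostly lay within 2-fold of TCP, as did most genes of the array. Of all genes compared, 1.36% were called higher and 1.94% lower on CS, and 3.02% and 3.99% on CSHA. The counts of these lists stand beside those shares, and in lists this small nothing is read from them. The gamma-tubulin ring list (TUBGCP2, PCNT, NEDD1 and others) had 12 genes with a value, of which 0 reached 2-fold on either membrane, with medians of 0.03 on CS and 0.09 on CSHA. The chaperonin, prefoldin and tubulin cofactor list had 21 genes, of which 17 were higher on CS without reaching 2-fold (median 0.12), beside 56.3% of all measured genes (median 0.04). On CSHA its median was -0.02 (0.42 under spike-in scaling), and 1 gene, the prefoldin subunit PFDN2, was 2-fold lower, with levels of 5.72, 5.61 and 4.36 on TCP, CS and CSHA, but its difference of -1.36 became -0.93 under spike-in scaling. TBCB, a cofactor that binds alpha-tubulin, was 0.80 lower on CSHA and 0.07 higher on CS.

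Of 20 stabilizing and plus end proteins 0 reached 2-fold on either membrane by the brightest probe. MAP4, a widely expressed protein that binds along microtubules, was 0.13 higher on CSHA by that probe. Its other probes were discordant on CSHA. The next brightest gave -0.47, 2 dimmer ones were 1.12 and 1.85 higher, and the dimmest was lower as a bound (-0.24). MAP7, which binds along microtubules and recruits kinesin, was highest at 0.42 on CS and 0.71 on CSHA (0.09 and 0.24 by its dimmer probe), while EML2 was 0.75 lower on CSHA. Of 13 destabilizing and severing proteins 0 reached 2-fold as well. The depolymerizing kinesin KIF2C had a difference of -0.81 on CSHA, and STMN1, which sequesters tubulin dimers, was 0.25 higher on CS and 0.18 higher on CSHA by its brightest probe, while the next gave -0.12 and -0.31.

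Of the enzymes that modify tubulin after translation, 0 reached 2-fold on CS and 1 of 17 on CSHA. This was TTLL1, a polyglutamylase, with levels of -1.35, -0.54 and -0.33 on TCP, CS and CSHA. It was thus 0.82 higher on CS and 1.03 higher on CSHA, but its dimmer probe gave 0.20 and -0.04. VASH1, which removes the last tyrosine of alpha-tubulin, was 0.99 higher on CS and 0.36 higher on CSHA. In the list of dynein, dynactin and transport kinesin genes 26 had a value, and 1 of them, the dynactin subunit DCTN1, was called lower on CSHA, with a difference of -1.35 that became -0.91 under spike-in scaling. The dimmer DCTN1 probe was 1.12 lower on CS and 0.78 lower on CSHA.

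**Figure D5:**
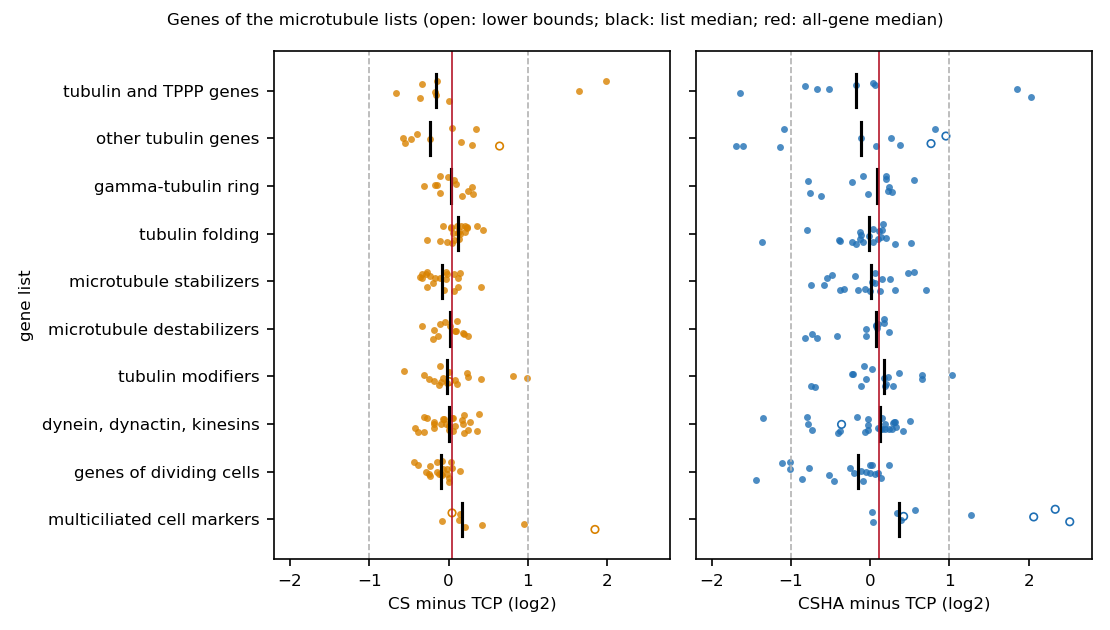
Log2 difference from TCP on CS (left) and CSHA (right) for the genes of each list, 1 point per gene by its brightest probe, with open points for lower bounds, black bars for the list's median, a red line for the median of all genes and dashed lines at 2-fold. Points are spread vertically only to separate them. The TPPP genes lie at the right of the first row, and 4 genes in the row of other tubulin genes lie beyond 2-fold to the left on CSHA.

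Genes of dividing cells and markers of other cell types were measured beside these. All 20 genes of dividing cells were well above background on each array, and their summed signal in units of the 75th percentile was 443, 420 and 392 on TCP, CS and CSHA. On CS 0 reached 2-fold, and on CSHA 4 of 20 were at least 2-fold lower, beside 3.99% of all genes. The differences were -1.44 for MCM2, -1.12 for PLK1 (-0.40 by its dimmer probe), -1.01 for CDC20 and -1.01 for MCM5. Under spike-in scaling none of the 4 reached 2-fold, at -0.999, -0.68, -0.58 and -0.57. On CSHA MKI67 was 0.05 lower by its brightest probe, while its dimmer probes gave 0.04 and -0.82, and TOP2A was 0.45 lower. The list's median was -0.09 on CS and -0.16 on CSHA, the latter 0.28 under spike-in scaling. Its part in the lower tubulin values was not tested.

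Multiciliated cells are rich in microtubules, and some of their markers were higher on the membranes, as TPPP and TPPP3 were. FOXJ1 was at least 2-fold higher on CSHA with a level measured on every array. DNAH5 on both membranes (by its brightest probe) and TEKT1 and SPAG6 on CSHA were past 2-fold as lower bounds only. Since such a gene has a value only through the array where it is high, no count is read against the 1.36% (CS) and 3.02% (CSHA) of all genes called higher. The list's median was 0.18 on CS and 0.36 on CSHA. Of 19 such markers with a probe, 6 were well above background on TCP, 9 on CS and 10 on CSHA, with summed signals of 12.99, 14.7 and 16.9. These sums rest mainly on CCNO and RSPH1, which had the highest levels of the list on each array. CCNO differed from TCP by -0.08 on CS and 0.03 on CSHA, and MCIDAS by 0.15 and 0.02. RSPH1 was 0.43 and 0.56 higher, and 0.17 and 0.19 higher by its dimmer probe. FOXJ1, the transcription factor of motile ciliogenesis, had levels of -0.76, 0.19 and 0.51 on TCP, CS and CSHA, and lay 0.95 above TCP on CS and 1.27 above on CSHA. DNAH5, a heavy chain of the outer dynein arm, was at background on TCP, and its rise was at least 1.85 on CS and 2.34 on CSHA. TEKT1 and SPAG6, proteins of the axoneme, were well above background on CSHA only. DNAI1, DNAI2, DNAH9 and RSPH4A, which also mark these cells, were not well above background on any array. The part of these genes in the rise of TPPP and TPPP3 was not tested.
Of 16 markers of neurons and enteroendocrine cells, 4 were well above background on TCP and 5 on each membrane, with summed signals of 1.74, 1.72 and 1.91, and CHGA, INSM1 and NEUROD1 were not among them. SCG3, a granin of secretory granules, was past 2-fold on CSHA as a lower bound (1.096), while MAP2 was 0.36 lower on CS and 0.59 lower on CSHA. Of 10 stromal markers, 2 were well above background on TCP, 0 on CS and 1 on CSHA. Their summed signals were 0.357, 0.151 and 0.419. The 1 on CSHA was PDGFRB, a growth factor receptor of stromal cells, past 2-fold there as a lower bound (1.97). The 2 on TCP, SPARC and VIM, went the other way, as bounds short of 2-fold. Their differences from TCP were -0.74 and -0.48 on CS and -0.31 and -0.06 on CSHA. The part of either list in the level of TUBB3 was not tested.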

How the data were processed

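HT29 cultures on TCP, CS and CSHA were measured on single-colour arrays, 1 for each condition. The authors deposited spot intensities, corrected for background by the scanner software (Feature Extraction 10.7.3.1 per the file headers), and a table of log2 values that had been shifted per array and centred per spot. The submitters' processing notes name limma. As in the methods, intensities under 1 would be set to 1 and arrays were aligned at the 75th percentile, here of the log2 processed intensity over 50568 probes left once control and outlier spots were removed. Accessions were matched to symbols through RefSeq genes of GRCh38.p14, and 29985 probes matched. The files use an older build, so gene coordinates were used only for the order of neighbours. The brightest probe stood for a gene, and every probe of the 10 genes is reported. A comparison required a probe well above background on 1 array of the pair or both. With 1 such array, the value is a lower bound, set by the dim probe's own signal or, if higher, the lowest signal of any probe well above background on the dim array. Calls are by size, at least 2-fold, with no test. The precision is limited by the number of arrays.

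The genes and the 12 other lists, written from general knowledge, were chosen with earlier results of these data known. Genes named besides the 10 came from a rule that selects, per list, the largest differences on each membrane and those past 2-fold, and for TPPP and TPPP3 the 3 nearest by both differences. Not every gene it selects is named. A few others (KRT20 and CDX2, MKI67, TOP2A, TUBB2A, TUBAL3, TUBD1, MAP4, TBCB, MCIDAS, RSPH1, SPARC, VIM and markers not above background) were added after their values were seen. The alternatives were normexp correction (offset 50) on the median spot signal, quantile normalization, 3 other scalings, the deposited log2 values, 2 filters on dim probes, the mean over probes, and thresholds of 1.5-fold and 3-fold. The calculation was tested on simulated data. Python 3.11.15, numpy 2.4.6, pandas 2.3.3, matplotlib 3.10.9, R 4.3.3 and limma 3.58.1 were used.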

Additional observations from a re-analysis of the deposited data

How the results depend on the processing

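The rises of TPPP and TPPP3 on both membranes and the lower TUBA1A on CSHA kept their direction under all 9 alternatives to the scaling, filter and probe choice. Each of these genes has 1 probe, well above background on all arrays. The 2 filters on dim probes and the mean over probes could therefore not change their values, and only the other alternatives could. The range for TPPP was 1.11 to 1.70 on CS and 1.52 to 2.47 on CSHA, that for TPPP3 was 1.72 to 2.04 and 1.58 to 2.28, and TUBA1A ranged from -1.71 to -1.21 on CSHA. TUBB stayed lower on CSHA (-0.89 to -0.39), as did TUBB3 (-0.73 to -0.23). Spike-in scaling turned CSHA against TCP for TUBA1B to 0.26, and CSHA against CS to 0.35 for TUBA1B, 0.02 for TUBA1C, 0.38 for TUBB3 and 0.25 for TPPP3. It also raised CSHA against TCP to 0.47 for TUBA4A and 0.49 for TUBG1. With the mean over probes TUBA4A and TUBG1 were lower on CSHA than on TCP, at -0.68 and -0.61. Of the 10 genes, 1 was lower on CS against TCP at 1.5-fold and 1 with no filter on dim probes, 3 were lower on CSHA against TCP at 1.5-fold and 2 with no filter, and 0 were lower on CSHA against CS at 3-fold and 0 with spike-in scaling. The gene that dropping the filter added was TUBB6, which was not well above background on any array. No share of all genes at 1.5-fold or 3-fold is given here, so nothing is read from these counts. The numbers among all genes with no filter and with spike-in scaling are given below. The median of the 9 genes with a value on CS against TCP was -0.0995 with normexp, -0.103 with quantile normalization, -0.103 with spike-in scaling and -0.212 with the mean over probes. On CSHA against TCP it was -0.238 with the percentile over detected probes, 0.257 with spike-in scaling and -0.669 with the mean over probes. With no filter it was -0.35, over all 10 genes, since TUBB6 then has a value. On CSHA against CS it was -0.123 with quantile normalization, 0.347 with spike-in scaling and -0.278 with the mean over probes. Among all genes, the numbers of 2-fold higher and 2-fold lower genes on CS were 58 and 107 with normexp, 34 and 40 in the deposited values, 634 and 1154 with no filter, and 84 and 82 with only genes detected on all arrays. On CSHA against TCP they numbered 157 and 293, 123 and 277, 1126 and 1194, and 263 and 447 in the same order, and 1809 and 176 with spike-in scaling. On CSHA against CS they numbered 108 and 149, 47 and 116, 1111 and 676, and 108 and 203, and 1009 and 116 with spike-in scaling. The cause of these shifts was not tested.

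No paired analysis was possible because each condition has 1 array, and no array was left out for the same reason. All values rest on 1 array per surface, and the spread among spots leaves out how cultures vary. Probe sequences were not used, and cross-hybridization among the tubulin genes was not tested. Each probe of these genes had 1 spot, so its spread is that of replicated probes of like brightness. Against TCP the spread assigned in this way was widest for TPPP, the dimmest on TCP of the 9 genes with a value.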
